A study of Mus musculus with 4 samples.

Results

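The genes described here are 10 feedback regulators and transcription factors tied to ERK, the MAP kinase at the end of the RAS, RAF and MEK cascade. They are the phosphatase genes Dusp4, Dusp5 and Dusp6, the Sprouty genes Spry1, Spry2 and Spry4, the Sprouty-related genes Spred1 and Spred2, and the ETS transcription factor genes Etv4 and Etv5. Members were chosen by gene name on the array, which gave 16 probes for 9 of the 10 genes. For Dusp5, 0 probes were found, and it was not analysed here. Of the 16 probes, 13 were bright enough to be tested, with at least 1 for each of the 9 genes, among 15550 genes tested in all.

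Back skin was taken at 10 days of age from mice of mixed 129Sv and C57BL/6 background. The 2 cKO mice were Adam17flox/flox and carried Krt14-Cre, which removes ADAM17, a metalloprotease that sheds ligands of the EGF receptor, from keratinocytes. The 2 control mice were Cre-negative Adam17flox/flox littermates, and since only cKO mice carry Cre, its own effect and that of losing ADAM17 cannot be told apart. Each of 2 litters gave 1 cKO and 1 control animal, and replicate 1 stands for litter 1 and replicate 2 for litter 2. The keratin 14 promoter is active in basal epidermal cells and the outer layers of the follicle, whereas a whole biopsy also holds dermis, fat and muscle in which the gene was not targeted.

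ERK signalling switches on its own brakes. DUSP6 is a cytoplasmic phosphatase that takes phosphate off ERK, while DUSP4 and DUSP5 do so in the nucleus. Sprouty and SPRED proteins act further up, at the receptor adaptors, RAS and RAF. ETV4 and ETV5 are transcription factors of the PEA3 group, whose genes are known to be switched on by FGF and EGF receptors through ERK. In skin this cascade takes part in keratinocyte growth, in differentiation and in the hair cycle.

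All values are log2 signals relative to the array's 75th percentile, and a difference is cKO minus control on that scale. The scale fixes no order of abundance between genes, since probes differ in brightness. Each array had 43379 gene spots, of which 53.7% to 56.6% stood well above background and 0 were saturated. All 6 basal keratinocyte markers and all 6 suprabasal markers looked for were measured, as the label skin requires. Adam17 was lower in both litters, at -0.14 and -0.12 in cKO skin and at 0.44 and 0.37 in control skin. That is 69.0% of control, with an adjusted p of 0.114. The array of cKO replicate 2 stood apart in sex-linked genes. The brightest Xist probe read 4030 there, and at most 8.38 on the other 3 arrays, while the Y-linked gene Eif2s3y read 8.97 there and at least 3266 on the others. By these genes cKO replicate 2 read as female and the other 3 arrays as male. Litter 1 thus paired animals alike in sex, litter 2 did not, and in litter 2 sex and genotype cannot be told apart. Differences are therefore given by litter.

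The probes of the measured phosphatase genes lie on chromosome 10 for Dusp6 and on chromosome 8 for Dusp4 (mm9 positions from the files, and no exon annotation of that build was used here). The Dusp6 probe covers chr10:98729985-98730044 on the plus strand. The brighter Dusp4 probe covers chr8:35884806-35884865 and the dimmer one chr8:35882045-35882104, both on the plus strand. The first 30 of the 60 bases of each are shown, 5′ to 3′, because these oligonucleotides are what the signal of both phosphatase genes rests on.
Dusp6 probe: catttggtggatgcaacaggttgagaggaa
Dusp4 probe 1: tcaagggacttcagtaagataacaatgcaa
Dusp4 probe 2: aataacggcggtttccgctgccagagaaga

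The promoter of Dusp6 is shown as well, since this gene had the largest difference of the members. These are the 250 bases before the annotated start, from RefSeq in GRCm38.p6 at chr10:99262981-99263230, plus strand, and the capitals mark the match found.
Dusp6 promoter: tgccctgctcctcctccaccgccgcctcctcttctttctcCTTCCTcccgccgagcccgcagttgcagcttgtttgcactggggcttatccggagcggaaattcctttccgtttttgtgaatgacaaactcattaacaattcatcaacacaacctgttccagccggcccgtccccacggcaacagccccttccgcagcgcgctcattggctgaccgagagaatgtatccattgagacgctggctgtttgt

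The match is the minus-strand form of AGGAAG, the PEA3-type ETS string, and it begins at position -210 relative to the start of the gene. Both strands were searched from 250 bases before to 50 after the start for AGGAAG, the ETS string CCGGAA, the AP-1 string TGANTCA, the CRE string TGACGTCA and the CArG box. AGGAAG and CCGGAA share the letters GGAA, and no matches overlapped in Dusp6. AGGAAG stood in 35.4% of all 32851 promoters of that length, so that a match is common. The other 4 motifs, held by 14.9%, 7.81%, 1.79% and 1.63% of promoters, had 0 matches in the Dusp6 window. The promoter table held 7 of the 10 genes. CArG boxes had 2 matches in the window of Dusp5, from which no signal was read.

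The question put to these arrays is how skin transcripts differ once keratinocytes lack ADAM17. Dusp6, Spry4 and Dusp4 were lower in cKO skin in both litters, with Dusp6 at 49.1% of control, Spry4 at 58.1% and Dusp4 at 78.8%. The other 6 genes lay between 92.4% and 106% of control. None of the 9 passed an adjusted p of 0.05 over all genes (limma), a threshold that 0.341% of all genes passed. Both cKO arrays lay below both control arrays for 4 of the 9 (Dusp4, Dusp6, Spry4 and Spred1), against 21.4% of all genes. Both lay above for 1 of 9 (Spred2), against 28.0% of all genes. An unadjusted p under 0.05 with a lower level was found for 3 of 9, against 8.12% of all genes. The members' median difference was -0.09, and that of all genes was 0.03. In whole skin, fewer cells that express a gene and less RNA per cell cannot be told apart.

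**Figure D1:**
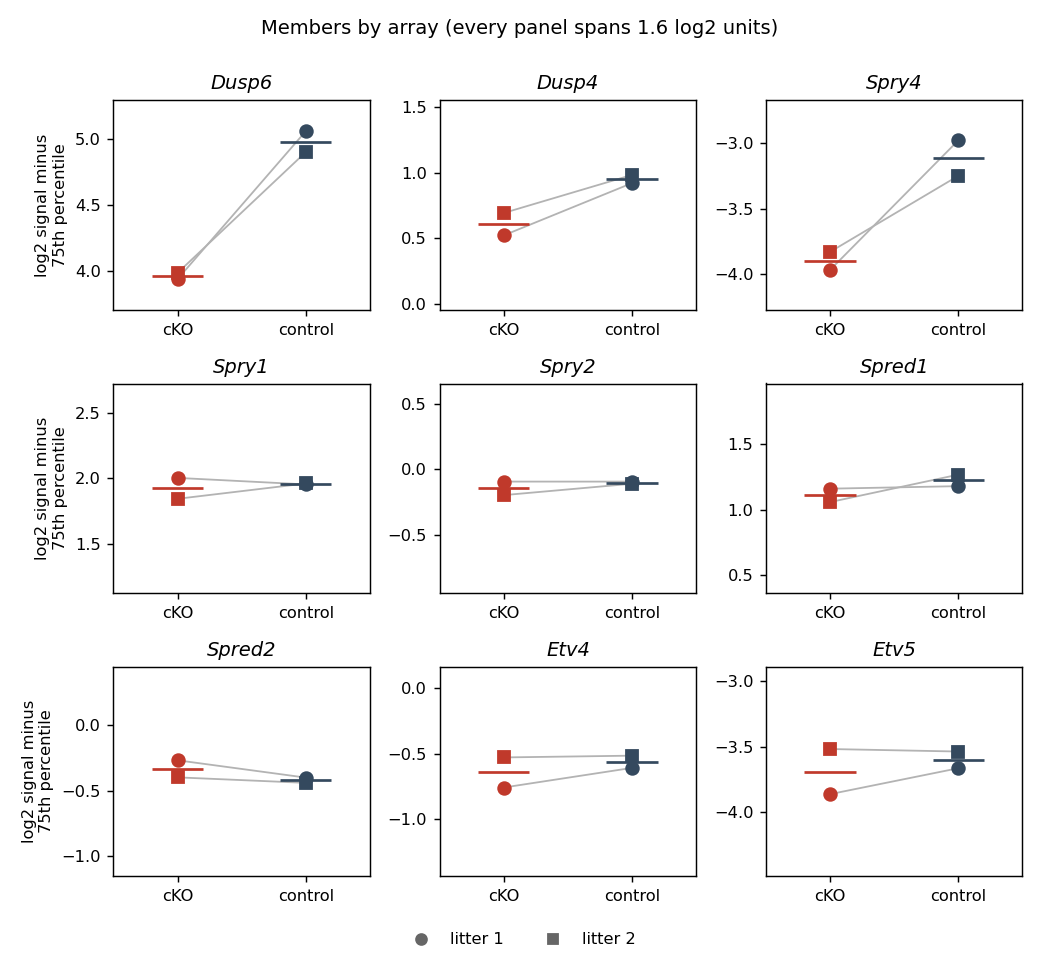
Log2 signal minus the array's 75th percentile (y axis) for each of the 9 members, with cKO arrays on the left and control arrays on the right of every panel; circles are litter 1, squares litter 2, grey lines join littermates and bars are group means. Dusp6 sits at 3.93 and 3.98 in cKO skin and at 5.06 and 4.90 in control skin, the widest gap of the 9, while the arrays of Spry1 and Spry2 overlap.

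Dusp6, the cytoplasmic ERK phosphatase, differed most. Its processed signal was 11814 and 12290 on the cKO arrays of litters 1 and 2, and 25127 and 23466 on the control arrays. On the log2 scale this was 3.96 ± 0.03 in cKO skin and 4.98 ± 0.11 in control skin (SD, n = 2 each). The gap between the groups was larger than the spread within them, since the control arrays differed between litters by -0.16 and the cKO arrays by 0.05. The difference was -1.03 ± 0.10 (SE), with -1.13 in litter 1 and -0.92 in litter 2 (adjusted p = 0.0534, limma). By its unadjusted p Dusp6 ranked 87th of 15550 genes. It had 1 probe, so that no second probe checks it. The adjusted p fell below 0.05 under 3 alternatives, being 0.0411 with arrays centred on their medians, 0.0167 with a prior variance that follows the signal, and 0.0345 with normexp without spots below local background. Over all 15 alternatives it ranged from 0.0167 to 0.728, the highest with normexp on all spots. It was 0.0947 with litter as a replicate block and between 0.145 and 0.201 with any 1 array left out. Without cKO replicate 2, the array that stood apart, the difference was -1.05.

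Dusp4, a nuclear phosphatase of the same family, differed by less. The brighter of its 2 probes read 0.52 and 0.69 in cKO skin, against 0.92 and 0.98 in control skin. Both cKO values were below both control values. The difference was -0.34 ± 0.10 (SE; adjusted p = 0.239, limma), with -0.40 in litter 1 and -0.29 in litter 2. Without cKO replicate 2 it was -0.43. The dimmer probe read -2.15 and -2.43 in cKO skin, against -1.77 and -2.22 in control skin. Its groups overlapped, but the cKO array was the lower one in each litter, by -0.39 and -0.21. The direction within litters was thus alike for the 2 probes, and the litters differed by more on the dimmer one.

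The Sprouty genes, which encode inhibitors at the level of adaptors and RAS, did not differ alike. Spry4 read -3.97 and -3.83 in cKO skin, against -2.98 and -3.25 in control skin. This was -3.90 ± 0.10 in cKO skin and -3.11 ± 0.19 in control skin (SD, n = 2 each), with no overlap. The difference was -0.78 ± 0.13 (SE; adjusted p = 0.121, limma), with -0.99 in litter 1 and -0.58 in litter 2. Leaving out cKO replicate 2 gave -0.85. The signal was dim though well above background on every array, at 49.4 and 54.7 in cKO skin and 95.3 and 82.4 in control skin before scaling. With normexp on all spots the sign turned to 0.38, a setting distorted by 3 spots of cKO replicate 2, and without those spots it was again lower (-0.36). A further Spry4 probe was not above background on any array. The files place only 14 of its 60 bases in the genome.

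Spry1, by contrast, read 2.00 and 1.84 in cKO skin, against 1.95 and 1.96 in control skin. The groups overlapped and the litters went opposite ways, at 0.05 and -0.12. The difference was -0.03 ± 0.10 (SE; adjusted p = 0.892, limma), with an unadjusted 95% interval from 81.5% to 117% of control. Spry2 read -0.10 and -0.20 in cKO skin, against -0.10 and -0.11 in control skin. Its groups overlapped as well, and the interval ran from 82.3% to 114% of control. Its other probe gave -0.17 in litter 1 and 0.09 in litter 2. Spry4's interval, from 45.5% to 74.1% of control, lay below both of these, although the difference between the genes was not tested.

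**Figure D2:**
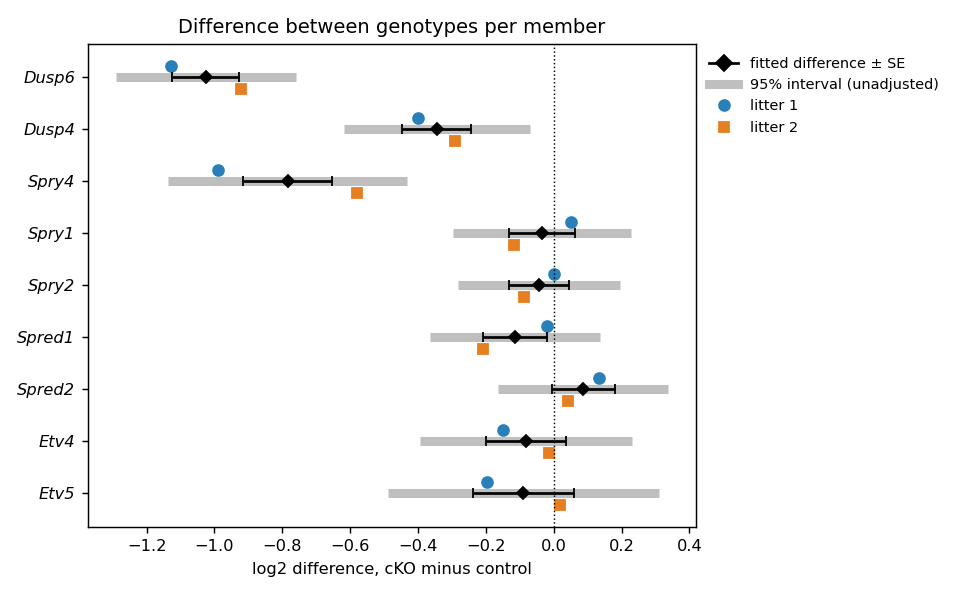
Log2 difference, cKO minus control (x axis), for each member: diamonds with bars are fitted differences with their SE, grey bands unadjusted 95% intervals, circles litter 1 and squares litter 2. Dusp6, Dusp4 and Spry4 have bands that end below 0, at -0.76, -0.07 and -0.43, and the bands of the other 6 genes include 0.

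The SPRED genes encode membrane-bound inhibitors that keep RAF from being activated by RAS. Spred1 read 1.16 and 1.06 in cKO skin, against 1.18 and 1.27 in control skin on its brightest probe. The groups did not overlap, but the gap in litter 1 was only -0.02, against -0.21 in litter 2. The difference was -0.11 ± 0.09 (SE; adjusted p = 0.600, limma). A dim further probe that passed the filter gave 0.01, and the third was not above background on any array. The gap of Spred1 was thus close to its standard error, and its 2 measured probes differed in sign.

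Spred2 read -0.27 and -0.40 in cKO skin, against -0.40 and -0.44 in control skin on its brighter probe. It was the only member with a higher fitted level, by 0.09 ± 0.09 (SE; adjusted p = 0.693, limma). Its dimmer probe went the other way, at -0.36 in litter 1 and -0.03 in litter 2. Both differences of Spred2 were close to their standard errors.

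The ETV genes differed by less than their standard errors, and the sign of both depended on the processing. Etv4, whose factor is also called PEA3, read -0.76 and -0.53 in cKO skin, against -0.61 and -0.52 in control skin. The cKO array of litter 2 lay within the range of the control arrays, and the difference was -0.08 ± 0.12 (SE; adjusted p = 0.773, limma). Etv5 read -3.86 and -3.52 in cKO skin, against -3.67 and -3.54 in control skin. It differed by more between litters within cKO skin (0.34) than between the genotypes (-0.09 ± 0.15, SE; adjusted p = 0.804, limma). The intervals ran from 76.0% to 117% of control for Etv4 and from 71.3% to 124% for Etv5. A level of 49.1% of control, as for Dusp6, lies outside both intervals. With normexp on all spots Etv5 was higher by 0.84 and Etv4 by 0.09, and without the 3 spots of cKO replicate 2 named above Etv5 was higher by 0.12. Without cKO replicate 1 Etv5 was at 0.08 and Etv4 at 0.03. A further Etv5 probe was not above background on any array.

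**Figure D3:**
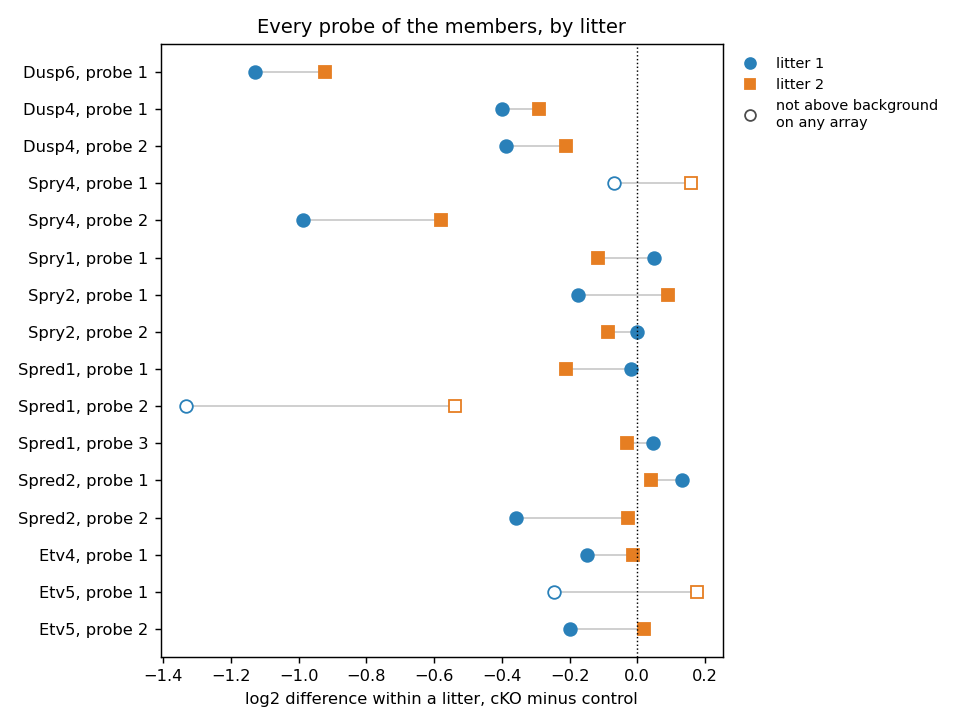
Log2 difference within each litter, cKO minus control (x axis), for all 16 probes of the members; circles are litter 1, squares litter 2, and open symbols are the 3 probes not above background on any array. The Dusp6 probe, both Dusp4 probes and the brighter Spry4 probe, itself dim, are lower in both litters. So are the Etv4 probe, Spred1 probe 1 and Spred2 probe 2, with a gap in 1 litter of only -0.01, -0.02 and -0.03, and an open Spred1 probe. The dimmer Spry2 probe lies at -0.17 in litter 1 and 0.09 in litter 2.

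Over probes instead of genes, both cKO arrays lay below both control arrays for 4 of the 13 member probes tested, against 22.6% of all probes. Litter 1 showed the larger gap for Dusp6, Dusp4 and Spry4 alike, at 45.7%, 75.9% and 50.4% of control, against 52.8%, 81.8% and 66.9% in litter 2. The difference between litters was not tested, as each holds 1 animal per genotype. For Spry4 the control animals themselves differed by -0.27, litter 2 minus litter 1.

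The other genes of the cascade were read through lists chosen for their role. Of 18 receptors, adaptors and RAS genes, 3 were lower and 5 higher with no overlap of the groups, against 21.4% and 28.0% of all genes, with a median of 0.07. Their smallest p-values belonged to Fgfr2 (an FGF receptor) at 0.42 ± 0.12, Met (the HGF receptor) at 0.39 ± 0.13 and Sos2 (an exchange factor for RAS) at 0.27 ± 0.10 (SE). Of 13 measured RAF, MEK, ERK and substrate kinase genes, 3 were lower and 4 higher by the same count, with a median of 0.03. Among these Mknk1, a kinase activated by ERK, stood at -0.29 ± 0.10, Rps6ka2 at 0.33 ± 0.16 and the scaffold gene Ksr1 at 0.19 ± 0.09 (SE). These counts were near the shares over all genes, and 0 of these 31 genes passed the test.

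None of the other inhibitors of the pathway passed the test. Of 17 measured phosphatases, RAS GTPase-activating proteins and further inhibitors, 12 were lower and 3 higher with no overlap, with a median of -0.30 (litter 1 alone gave -0.21, litter 2 alone -0.31). Over all genes 21.4% were lower and 28.0% higher in this way. An unadjusted p under 0.05 with a lower level was found for 5 of the 17, against 8.12% of all genes. Dusp2, which encodes a nuclear phosphatase induced early after stimulation, read 2.85 and 2.70 in cKO skin, against 4.82 and 4.36 in control skin. Its difference was -1.81 ± 0.18 (SE; adjusted p = 0.0570, limma), larger than that of any member. Dusp14 stood at -0.57 ± 0.13 and Rasa2, a GTPase-activating protein for RAS, at -0.48 ± 0.11 (SE; adjusted p = 0.188 and 0.168).

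Of 25 other transcripts known to follow ERK, 10 were lower and 3 higher with no overlap (21.4% and 28.0% over all genes), with a median of -0.17 (adjusted p above 0.05 for all). The immediate-early factor gene Egr1 read 1.57 and 1.19 in cKO skin, against 3.88 and 3.50 in control skin. Il1f6, an interleukin 36 gene, read -2.45 and -1.89 in cKO skin, against -4.60 and -4.36 in control skin. The dimmer Etv5 probe, not above background on any array, read up to -4.60, so the control values of Il1f6 were near background. The filter needs a signal well above background in only 1 genotype, so Il1f6 could pass through cKO skin alone. Myc stood at 0.51 ± 0.11 (SE). Of these 3 genes, those with the smallest p-values, Egr1 was lower while Il1f6 and Myc were higher. By Egr1 and Myc the list went both ways, with more genes lower than higher by the count without overlap. Of 16 other measured ETS factor genes, 5 were lower and 3 higher by the same count, with a median of -0.01. Elf3, an epithelial factor, was at 0.71 ± 0.12, Elf5 at -0.41 ± 0.10 and Etv2 at -0.39 ± 0.10 (SE). Their adjusted p ran from 0.118 to 0.206 (limma). Elf3 read -4.83 and -4.75 in control skin, within the range of the dimmer Etv5 probe (-5.49 to -4.60). Its gap thus rests on control values near background, and it too could pass the filter through cKO skin alone. Etv2 was dim as well, at -4.18 and -4.34 in cKO skin.

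**Figure D4:**
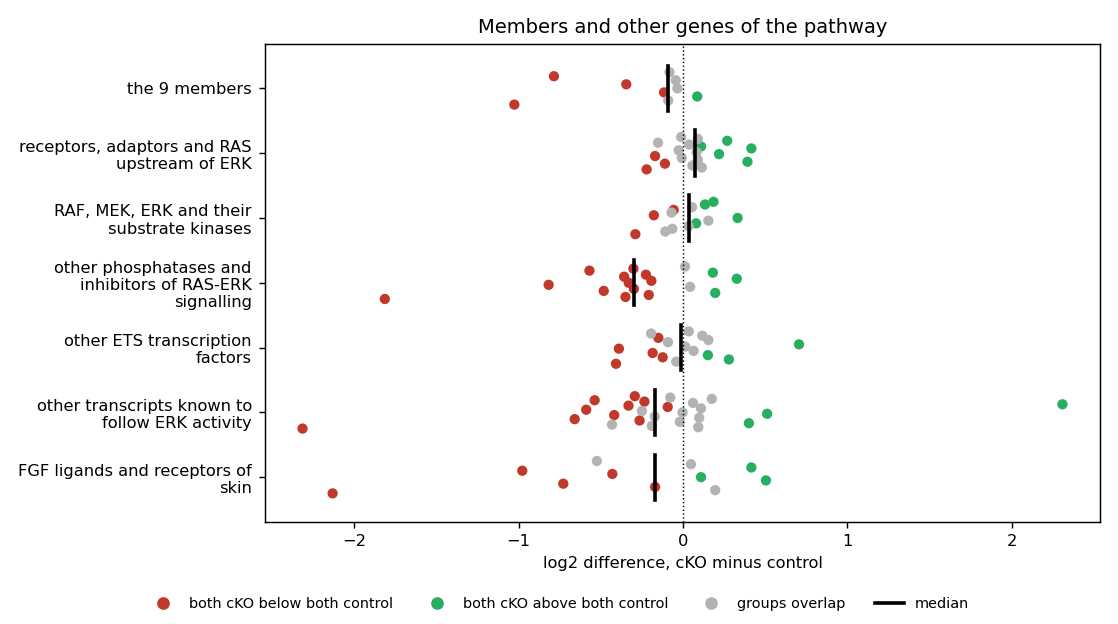
Log2 difference, cKO minus control (x axis), of the 9 members and of 6 lists of other pathway genes, 1 point per gene; red points have both cKO arrays below both control arrays, green ones both above, grey ones overlap, and black lines are medians. The list of other phosphatases and inhibitors has its median at -0.30, with Dusp2 at -1.81, while the receptors and kinases have medians of 0.07 and 0.03.

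FGF ligands and receptors, upstream of the ETV genes in many tissues, held the single gene of these lists that passed the test. Fgf5, the ligand that ends the growth phase of the hair, read -0.10 and 0.00075 in cKO skin, against 2.04 and 2.13 in control skin. It fell by 2.13 on the log2 scale (adjusted p = 0.0188, limma), a call that is lost with litter as a replicate block (adjusted p = 0.0567), with normexp on all spots, without the filter on dim probes and without either control array. Of 11 measured genes of this list, 5 were lower and 3 higher with no overlap, where all genes gave 21.4% and 28.0%.

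The genes whose 4 values were closest to those of Dusp6, after centring each gene on its mean, were Col6a4, Cited1, Slc1a3, Krtap4-7 and Prkg2, at Euclidean distances from 0.09 to 0.14 over the 4 arrays. Col6a4 encodes a collagen VI chain, Cited1 a transcriptional coregulator, Slc1a3 a glutamate transporter, Krtap4-7 a hair keratin-associated protein and Prkg2 a cGMP-dependent kinase. Their differences lay between -0.90 and -0.98. Members were left out of this ranking, so it does not show how near Spry4 or any other member lay.

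Markers of the cell types of skin differed between the genotypes in part, and their counts stand against 28.0% of all genes higher and 21.4% lower with no overlap. None of the markers passed the test. Both cKO arrays lay above both control arrays for 6 of 6 basal keratinocyte markers, whose summed level was 616 and 587 in cKO skin, against 549 and 543 in control skin. A summed level adds the unlogged values of the markers, so that bright probes weigh most in it. Suprabasal markers were higher for 4 of 6 and lower for 1 of 6, with sums of 672 and 798 in cKO skin, against 562 and 546 in control skin. Inner root sheath markers were lower for 3 of 6, with sums of 1793 and 1857 in cKO skin, against 1985 and 2115 in control skin (Krt73 did not pass the filter). Bulge markers were lower for 1 of 5 and overlapped for 4 of 5, while their sums were 129.97 and 135.93 in cKO skin, against 137.21 and 146.61 in control skin. Schwann cell markers were lower for 1 of 4, with sums of 3.67 and 3.41 in cKO skin, against 4.79 and 4.49 in control skin. Langerhans cell markers were lower for 1 of 3, with sums of 14.9 and 14.4 in cKO skin, against 16.1 and 15.0 in control skin. For bulge, Schwann and Langerhans cells the count was thus 1 marker, near what the share over all genes gives for so short a list. T cell markers were lower for 4 of 5, while their sums overlapped, at 18.8 and 13.2 in cKO skin and 18.1 and 13.5 in control skin. Melanocyte markers were higher for 3 of 4, with sums of 186 and 196 in cKO skin, against 140 and 167 in control skin. Fat and muscle markers were higher for 4 of 6 each, and their sums overlapped. Dermal papilla markers were lower for 2 of 3, endothelial markers for 1 of 5 and red cell markers for 1 of 3. Hair matrix and shaft markers were lower for 1 of 7 and higher for 2 of 7. Macrophage and mast cell markers were higher for 1 of 5 each, and all sebaceous and fibroblast markers overlapped. The sums of these further types overlapped as well. The part of these cell types in the differences of the members was not tested.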

How the data were processed

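RNA of 4 back skin biopsies, 2 cKO and 2 control, was labelled with Cy3 (500 ng each, per the labels' protocols) and hybridised to 1-colour Agilent arrays of design 014868. The deposited scanner files hold intensity values per spot, with background subtraction and detrending by Feature Extraction (10.7.3.1 per the file headers, 10.5 per the submitters' processing notes). All arrays shared 1 slide and 1 scan, so batches could not be tested. The authors' series table holds log2 values, which matched the scanner values on the scale below after centring each probe on its median (correlation at least 0.99999). It was used as an alternative.

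Log2 of the processed signal was taken relative to the array's 75th percentile over gene spots. Spots marked as outliers, 51 to 66 on an array, were dropped, and repeated spots of 1 probe were averaged. Of 41174 probes, 22188 had values on all arrays and, in at least 1 genotype, a signal well above background in both animals. Each gene kept its brightest probe. Members were found by the name in the files; other genes took current RefSeq names (26690 probes by accession, 5189 by symbol, 952 by synonym, 8343 left as filed).

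Genotypes were compared over 15550 genes with limma 3.58.1 in R 4.3.3, two-sided, without litter, with Benjamini-Hochberg adjustment and a threshold of 0.05. With 2 animals per group, precision rests on the number of arrays. Deviations of littermates from the group means correlated across genes (0.35, Spearman 0.43), and the labels give both animals of a litter the same number. Intervals and standard errors use the moderated variance. The fit was also run on simulated data with independent noise and no litter effect. That run cannot show how the fit does where littermates correlate. Named genes were all members and their probes, Adam17, up to 3 genes per list with the smallest p or those past the threshold, and the 5 genes nearest Dusp6. Members, lists and tests were chosen with earlier results of these data known, so none is independent support. No protein sequences were used.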

Additional observations from a re-analysis of the deposited data

How the results depend on the processing

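The share of genes tested that passed the threshold, 0.341% (53 genes), was 0 with litter as a replicate block (lowest adjusted p = 0.0567; 3706 genes at an unadjusted p under 0.05), 0 with normexp on all spots (425 at an unadjusted p under 0.05) and 0 without the filter on dim probes (2079). It was 0.862% with normexp without spots below local background, 0.514% with quantile normalization, 0.688% with median centring, 0.187% with probes above background on all 4 arrays, 1.24% with a prior variance following the signal and 0.158% with each probe as its own row, tested over 15550 genes except for 14963 genes above background on all 4 arrays, 28023 without the filter and 22188 probes. With 1 array left out it ranged from 0 to 0.244%, and was 0 without control replicate 1 (1840 at an unadjusted p under 0.05) or 2 (1749), 0.244% without cKO replicate 1 and 0.154% without cKO replicate 2. The causes were not tested, except that 3 spots of cKO replicate 2 below their local background moved the background fitted by normexp to -390, against 47.9 without them (an alternative chosen after seeing the data). Of the members, 0 passed, and 1, Dusp6, passed with median centring, with the prior variance following the signal and with normexp without those spots. The replicate block changed no member's call. The 5 members whose groups did not overlap became 3 with the mean of all probes of a gene. They became 4 with normexp on all spots and 6 with median centring. Dusp6 and Dusp4 kept a negative sign in all 15 and 16 alternatives, from -1.26 to -0.95 and from -0.43 to -0.26. Signs turned for Spry4 (0.38), Etv4 (0.0937) and Etv5 (0.84) with normexp on all spots, for Etv5 (0.12) with normexp without those spots, for Spred2 (-0.0530) with the mean of probes, and for the dimmer probes of Spred2 (-0.19) and Spred1 (0.0080). With 1 array left out, Spry1 ranged from -0.11 to 0.0462, Spry2 from -0.0949 to 0.0083, Etv4 from -0.20 to 0.0331 and Etv5 from -0.26 to 0.0828. A group with 1 array left was assumed to vary like the other. The count of groups without overlap has no value of its own under the block, the prior variance or a left-out array. Dim probes of Etv5, Spred1 and Spry4 limit what can be read below background. Il1f6, Elf3, Etv2, Ksr1 and Prkg2, named from outside the members, were dim as well.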
